A study of Rattus norvegicus with 24 samples.

Results

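Transcripts of 6 genes that build the sperm tail, Odf1, Odf2, Odf4, Akap4, Smcp and Tekt5, were followed in germ cells of young and aged rats. Every probe set that the platform annotation gives exactly 1 of these symbols was taken, which made 9 probe sets of 20826 with a single symbol, and 6 genes of 14217. RNA came from pachytene spermatocytes and round spermatids of Brown Norway (BN) rats aged 4 months (young) or 18 months (aged), with 6 arrays in each of the 4 groups and 24 in all. Collagenase and trypsin were used to free the cells, and a STAPUT density gradient enriched them to a stated purity above 83%, so each fraction held other cells as well. The numbers in the titles are taken here as rats. The labels do not say whether a number is a single animal, and p-values measure only the spread between these samples.

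The tail of a sperm is a microtubule axoneme wrapped in accessory structures. Outer dense fibres run along the axoneme, the fibrous sheath surrounds it in the principal piece, and a sheath of mitochondria surrounds it in the midpiece. Much of the mRNA for these parts is made in spermatids and stored until the tail is assembled. Odf1 and Odf2 belong to the outer dense fibres, while Odf4 is named after them but is a membrane protein of the tail. Akap4 is the main anchoring protein of the fibrous sheath, Smcp a cysteine-rich protein of the mitochondrial capsule, and Tekt5 a tektin, a filament protein of flagellar microtubules.

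The genes lie apart in the rat genome. In the RefSeq annotation of GRCr8, Odf4 is at chr10:54127398-54133227 and Tekt5 at chr10:5786656-5823411, while Odf1 is at chr7:71262270-71274621 and Odf2 at chr3:33557738-33605076. Smcp is at chr2:180856561-180861564 and Akap4 at chrX:18107256-18117549. RefSeq promoter windows were matched for 4 of the 6 genes (Odf2, Odf4, Akap4 and Smcp). The 250 bases before the start of Akap4 (chrX:18117550-18117799, minus strand) and of Smcp (chr2:180861565-180861814, minus strand) are shown because both genes were much brighter in round spermatids and both windows hold the same 8 letters, given in capitals.
Akap4: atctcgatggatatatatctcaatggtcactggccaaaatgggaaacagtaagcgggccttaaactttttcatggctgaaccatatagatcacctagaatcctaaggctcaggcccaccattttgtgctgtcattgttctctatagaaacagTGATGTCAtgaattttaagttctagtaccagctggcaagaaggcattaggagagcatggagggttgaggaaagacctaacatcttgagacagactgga
Smcp: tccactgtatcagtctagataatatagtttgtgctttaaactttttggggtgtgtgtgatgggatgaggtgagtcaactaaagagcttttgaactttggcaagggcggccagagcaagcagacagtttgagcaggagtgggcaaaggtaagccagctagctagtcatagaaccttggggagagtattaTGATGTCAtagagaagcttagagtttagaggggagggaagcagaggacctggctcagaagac

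The capitals, TGATGTCA, differ in a single letter from TGACGTCA, the full cAMP response element. This motif was looked for after the sequences had been seen, so its presence in both windows is a description. It lies 98 to 91 bases before the start of Akap4 and 62 to 55 bases before that of Smcp, and 3.80% of 33469 rat windows of this length hold it on either strand. No window of Odf2 or Odf4 held it, although the brightest probe set of Odf2 was also higher in round spermatids. Odf1 and Tekt5, higher there as well, had no window. Whether the motif goes with the level was not tested. Searched on both strands, TGACGTCA (in 1.59% of all windows), GTTGCC (9.89%), TATAAA (12.9%) and CAGTTG (11.4%) were in none of the windows of these 4 genes. TGACG, whose letters are also part of TGACGTCA, was in 1 window of Odf2 and in 18.2% of all windows.

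Signals are log2 values. Their floor differed between the fractions (array minimum 3.26 to 3.67 in pachytene and 6.08 to 6.31 in round spermatid arrays), while the top was alike (15.1 to 15.5 and 15.4 to 15.5). Levels are given below as deposited, and differences after quantile normalization with limma, adjusted over all 31042 probe sets tested. Young rats 1, 10 and 11 stood apart in the pachytene arrays, at -86.3, -47.1 and -44.0 on a first principal component holding 73.9% of the variance, against -7.38 to 3.78 in the other young rats. Pachytene and spermatid markers mostly followed the labels: 10 of 11 pachytene markers were lower in round spermatids, and 8 of 10 round spermatid and acrosome markers and 7 of 7 late spermatid markers were higher. Lists of other cells moved both ways. Of 8 macrophage markers 8 were higher, of 8 spermatogonia markers 5 were higher and 1 lower, and of 6 peritubular cell markers 4 and 1. Of the macrophage markers 2 lay above the median of pachytene arrays. For markers below it floor and cell type cannot be told apart. Of 14 Sertoli cell markers 2 were higher and 12 lower, and of 7 Leydig cell markers 1 and 4. Among all genes, with 1 probe set each, 49.7% were higher and 38.6% lower. In pachytene fractions, however, all 7 late spermatid markers lay above the median of the array at both ages, as did 13 of 14 Sertoli cell markers in young and 12 of 14 in aged rats. In round spermatid fractions all 11 pachytene markers lay above it at both ages, as did 10 of 14 Sertoli cell markers in young and 9 of 14 in aged rats.

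Odf1 was among the brightest transcripts on every array. In pachytene spermatocytes its lowest, median and highest log2 level were 14.04, 14.42 and 14.99 in young rats and 13.56, 13.71 and 14.11 in aged rats. In round spermatids they were 15.10, 15.17 and 15.18 in young and 14.99, 15.08 and 15.21 in aged rats. Every round spermatid array of young rats lay above every pachytene array, the ages overlapped within each fraction, and the brightest young pachytene array reached the lowest aged round spermatid array. Among all 31099 probe sets Odf1 ranked 4 or 5 from the top in all round spermatid arrays, 0.30 to 0.41 below the highest signal of the array. In pachytene arrays its rank was 11 to 85 in young and 72 to 256 in aged rats.

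Odf2, which also has forms at the centrosome, was measured by 3 probe sets that did not move together. The brightest (1368466_a_at) lay at 14.18, 14.33 and 14.82 in young and 14.17, 14.25 and 14.28 in aged pachytene spermatocytes. In round spermatids it lay at 14.79, 14.95 and 14.98 in young and 14.81, 14.90 and 14.99 in aged rats. Aged arrays of the fractions were apart, the brightest young pachytene array reached into the round spermatid range, and in round spermatids the ranks were 10 to 21 from the top. A mid-level probe set (1399142_at) ran the other way, at 10.52, 10.72 and 10.91 in young and 10.76, 10.81 and 10.90 in aged pachytene spermatocytes against 9.24, 9.73 and 10.02 in young and 9.98, 10.06 and 10.14 in aged round spermatids. All pachytene arrays lay above all round spermatid arrays for it. The dimmest (1388019_at) lay at 5.26, 5.56 and 5.63 in young and 5.09, 5.25 and 5.30 in aged pachytene spermatocytes, and at 7.34, 7.47 and 7.53 in young and 7.34, 7.58 and 7.66 in aged round spermatids. Those levels are below the median of every array in both fractions, where the floor of the arrays and the cell type cannot be told apart.

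Odf4, a membrane protein of the sperm tail, had medians in the 4 groups of 12.74 to 13.09 (1386673_at) and 12.09 to 12.35 (1386450_at). Its probe set 1386673_at lay at 12.47, 12.83 and 12.87 in young and 12.87, 12.93 and 13.04 in aged pachytene spermatocytes, and at 12.62, 12.74 and 13.17 in young and 13.01, 13.09 and 13.27 in aged round spermatids. Its probe set 1386450_at lay at 11.93, 12.23 and 12.31 in young and 12.27, 12.31 and 12.49 in aged pachytene spermatocytes, and at 11.87, 12.09 and 12.42 in young and 12.22, 12.35 and 12.49 in aged round spermatids. In both probe sets the fractions overlapped, and the lowest array of each fraction was that of a young rat. In round spermatids young rat 2, at 13.17 and 12.42, lay within the range of the aged rats.

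Akap4 had a wide spread in young pachytene spermatocytes. Its lowest, median and highest levels there were 11.99, 12.66 and 13.81, against 11.47, 11.53 and 12.17 in aged rats. In round spermatids they were 14.13, 14.16 and 14.26 in young and 13.82, 14.00 and 14.19 in aged rats. Every round spermatid array lay above every pachytene array, and the ages overlapped in both fractions. Its rank from the top was 66 to 117 in young and 115 to 163 in aged round spermatids, and 190 to 1261 in young and 1051 to 1882 in aged pachytene spermatocytes.

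Smcp came close to the top of the range in round spermatids, like Odf1. It lay at 13.78, 14.21 and 14.94 in young and 13.25, 13.34 and 13.82 in aged pachytene spermatocytes, and at 15.04, 15.07 and 15.10 in young and 14.82, 14.96 and 15.09 in aged round spermatids. Every young round spermatid array lay above all pachytene arrays, while the brightest young pachytene array passed the lowest aged round spermatid array. In round spermatids it ranked 6 to 9 in young and 9 to 12 in aged rats, 0.40 to 0.44 and 0.43 to 0.54 below the highest signal of the array.

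Tekt5 had the widest range of the 9 probe sets. In pachytene spermatocytes it lay at 9.67, 10.37 and 11.96 in young and 8.91, 9.06 and 9.61 in aged rats, and in round spermatids at 12.15, 12.50 and 12.62 in young and 11.66, 12.14 and 12.34 in aged rats. On this scale all aged pachytene arrays lay below all young ones, whereas the brightest young pachytene array lay above the lowest aged round spermatid array. Its rank from the top was 678 to 1140 in young and 1112 to 1493 in aged round spermatids, and 1468 to 5812 and 5419 to 7597 in young and aged pachytene spermatocytes.

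**Figure D1:**
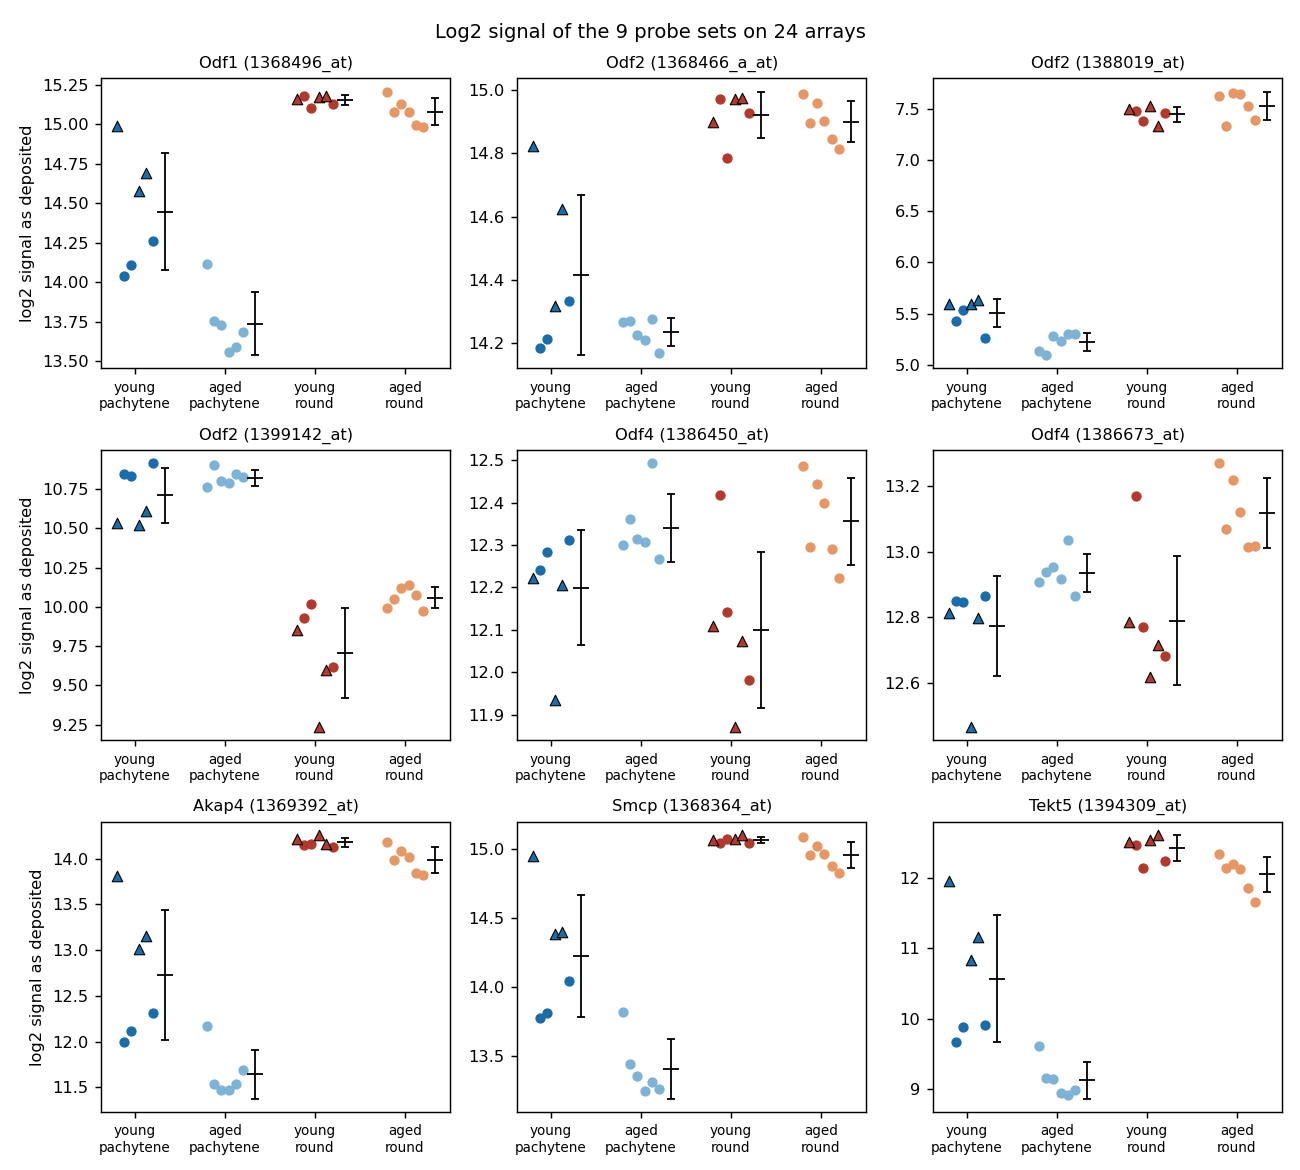
Deposited log2 level of each of the 9 probe sets (y axis) in each array of the 4 groups (x axis). Points are arrays, the bar beside them is the mean ± SD of 6 arrays, and triangles mark young rats 1, 10 and 11. Odf1, Akap4, Smcp and Tekt5 are higher in round spermatids, and in pachytene spermatocytes the triangles are their highest points.

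**Figure D2:**
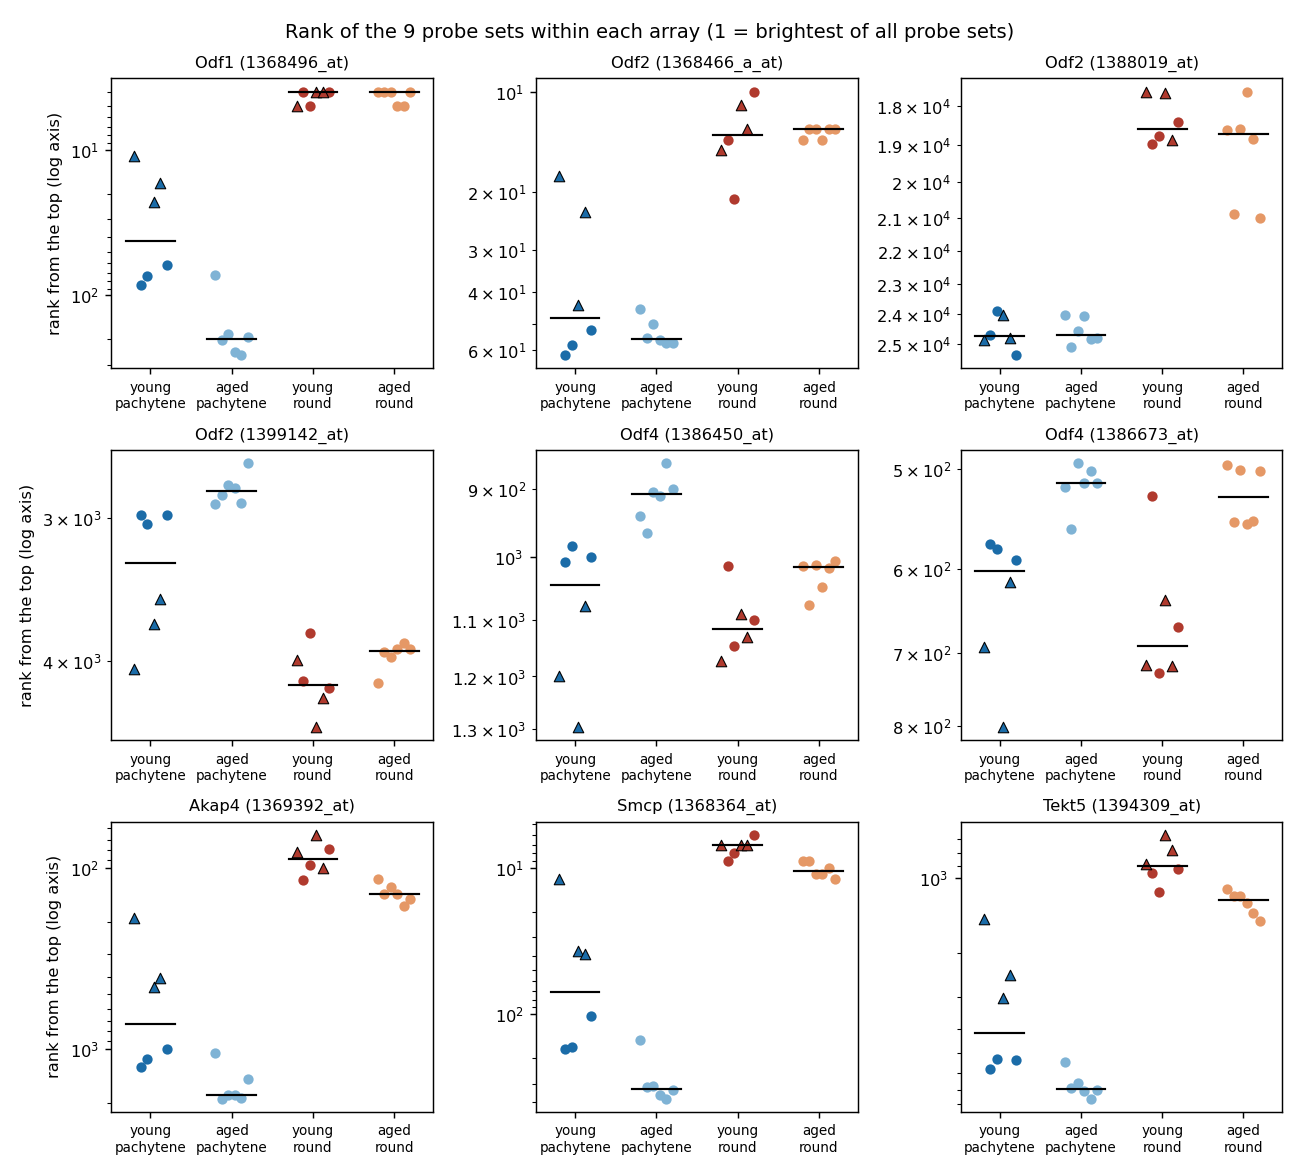
Rank of each probe set within its array (y axis, log scale, 1 is the brightest of 31099 probe sets) in the 4 groups, with group medians as lines and young rats 1, 10 and 11 as triangles. Odf1 holds rank 4 or 5 in all round spermatid arrays, and Smcp ranks 6 to 12 there.

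In both fractions the brightest probe sets varied least between arrays. In round spermatids this contrast was smaller in aged than in young rats. Odf1 and Smcp stand within 0.54 of the highest signal there, and the median SD between arrays of the 50 brightest probe sets was 0.058 in young and 0.070 in aged round spermatids, against 0.237 and 0.091 for ranks 501 to 5000. Whether these probes were near saturation was not tested.

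The first comparison asked how the fractions differ. Tekt5 was 5.48-fold higher in round spermatids than in pachytene spermatocytes (log2 difference 2.45, SE 0.19, n = 12 arrays per fraction, limma adjusted p = 3.88e-11) and Akap4 3.52-fold (1.81, SE 0.15). Smcp was 2.07-fold (1.05, SE 0.09) and Odf1 1.87-fold higher (0.91, SE 0.08). Of the 9 probe sets 6 were higher and 2 lower, against 85.1% of all probe sets called, 46.9% higher and 38.3% lower, and their median difference was 0.45 against 0.03 over all. Being called was therefore common on these arrays. One of the 6 was Odf2 1388019_at, the dim probe set for which floor and cell type cannot be told apart. With the 40% dimmest probe sets left out it was not tested, and 5 of the other 8 were higher and 2 lower, against 90.6% of all called. The groups did not overlap after normalization for Odf1, Akap4 and that dim probe set, 3 of the 9, against 45.6% of all.

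The 2 brighter probe sets of Odf2 split between the fractions. The brightest was higher in round spermatids by 0.45 (SE 0.04, limma adjusted p = 1.41e-09), while 1399142_at was lower by 0.48 (log2 difference -0.48, SE 0.05, adjusted p = 1.38e-08). The transcripts that each of them detects were not examined here. Odf4 had log2 differences of -0.08 (1386450_at, SE 0.03, adjusted p = 0.0268) and -0.03 (1386673_at, SE 0.04, adjusted p = 0.539). The first did not pass as deposited (-0.07, adjusted p = 0.221) or with median centring (-0.01, 0.866). It also did not pass when young rat 3, 11 or 13 or aged rat 8 or 9 was omitted, with a range of -0.11 to -0.07 over the 12 rats left out in turn. The other changed sign on those scales and with hybridization controls (0.08, 0.14 and 0.03), and with median centring it passed the test as higher (adjusted p = 0.0159).

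The distance between fractions was also measured at each age, with 76.3% of all probe sets called in young and 80.6% in aged rats. For Odf1 the log2 difference was 0.60 (SE 0.12) in young and 1.19 (SE 0.07) in aged rats, and for Smcp 0.72 (SE 0.16) and 1.37 (SE 0.07). For Akap4 it was 1.36 (SE 0.28) and 2.26 (SE 0.11), and for Tekt5 2.08 (SE 0.36) and 2.87 (SE 0.10). All 4 genes were therefore higher in round spermatids at both ages, with the smaller difference and the wider error in young rats. Odf4 1386450_at was past the threshold in aged rats only (-0.14, against -0.02 in young rats), and the difference between those ages was not past it (adjusted p = 0.229).

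**Figure D3:**
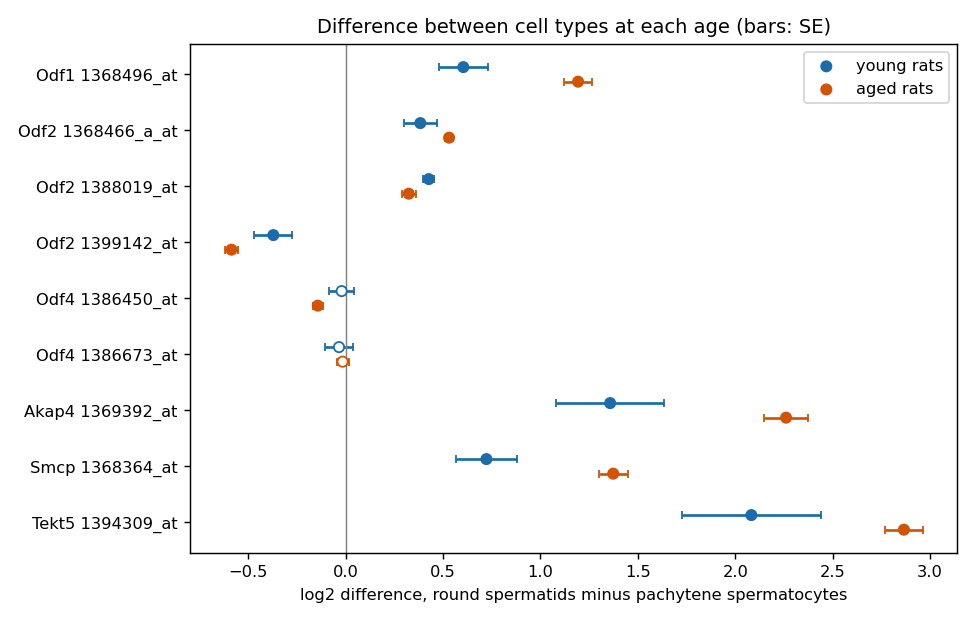
Log2 difference between round spermatids and pachytene spermatocytes (x axis, above 0 is higher in round spermatids) for the 9 probe sets (y axis) in young and aged rats, n = 6 arrays per group. Bars are SE, and open points are not past an adjusted p of 0.05. Odf2 1388019_at lies near the floor of the arrays, where floor and cell type cannot be told apart. Akap4 is at 1.36 in young and 2.26 in aged rats, and Tekt5 at 2.08 and 2.87.

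Age was compared next in pachytene spermatocytes. Tekt5 fell 2.32-fold in aged rats (log2 change -1.21, SE 0.33, n = 6 per age, limma adjusted p = 0.0138) and Akap4 2.06-fold (-1.04, SE 0.27, adjusted p = 0.0109). Smcp fell 1.71-fold (-0.77, SE 0.17, adjusted p = 0.00408) and Odf1 1.59-fold (-0.67, SE 0.14, adjusted p = 0.00375). Both probe sets of Odf4 rose slightly (0.20 and 0.22, SE 0.06 each, adjusted p = 0.0205 and 0.0151), as did Odf2 1399142_at (0.27, SE 0.09, adjusted p = 0.026). The other probe sets of Odf2 were at -0.12 (1368466_a_at, adjusted p = 0.247) and 0.01 (1388019_at, adjusted p = 0.93).

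In all, 7 of the 9 probe sets passed the test, 3 higher and 4 lower, against 37.5% of all probe sets, 22.1% higher and 15.4% lower. After normalization young and aged groups did not overlap for 3 of them, the probe sets that rose, against 21.0% of all. The 4 genes that fell had the larger changes and yet overlapping groups. Aged rat 2 had the highest aged level of each of these 4 genes and lay within the young range.

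Young rats 1, 10 and 11 had the highest pachytene levels of all 4 genes. Normalized Tekt5 was 10.8 to 11.8 in them, 9.61 to 9.80 in young rats 2, 3 and 13 and 9.002 to 9.755 in aged rats. For Akap4 the ranges were 13.1 to 13.7, 12.003 to 12.261 and 11.5 to 12.2. For Smcp they were 14.4 to 14.8, 13.8 to 14.0 and 13.2 to 13.8, and for Odf1 14.6 to 14.8, 14.1 to 14.2 and 13.5 to 14.1. In each case rats 2, 3 and 13 stood between the other young rats and most aged rats. With young rats 1, 10 and 11 left out, these 4 genes were still lower in aged rats, by -0.47 for Tekt5 (adjusted p = 0.0257), -0.44 for Akap4 (0.0443), -0.45 for Smcp (0.0168) and -0.38 for Odf1 (0.0237), and none of the 9 probe sets was higher (24.7% of all called). Odf4 was then at 0.10 and 0.13 (adjusted p = 0.127 and 0.0611) and Odf2 1399142_at at 0.09 (0.187).

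Markers of late spermatids moved with these genes. The 7 measured of 12 late spermatid markers (protamines, transition proteins, Hils1 and Gsg1) all fell in aged pachytene fractions, with a median of -0.83. Their summed log2 level was 17.2 to 17.4 in young rats 1, 10 and 11, 16.5 to 16.7 in young rats 2, 3 and 13, 16.2 to 16.6 in aged rats and 17.6 to 17.8 in round spermatid fractions. Without young rats 1, 10 and 11, 3 of the 7 were still called lower, with 24.7% of all probe sets called. The 10 measured round spermatid and acrosome markers had 2 higher and 4 lower, and their summed level was 16.0 to 16.3, 15.8 to 15.9 and 15.8 to 15.8 in the same 3 sets of rats. Of 14 Sertoli cell markers 12 fell and 0 rose (summed level 15.6 to 16.3, 15.5 to 15.7 and 14.5 to 14.9), and 10 of 14 without those 3 young rats. Of 8 spermatogonia markers 4 fell and 0 rose, at summed levels of 10.9 to 11.5, 10.7 to 10.8 and 10.3 to 10.6. Of 8 macrophage markers 1 rose and 1 fell, and their summed level was 12.6 to 13.2 in young rats 1, 10 and 11, 11.4 to 11.7 in the other young rats and 11.005 to 11.585 in aged rats. Of 11 pachytene markers 3 rose and 2 fell. Among all genes 25.5% rose and 18.9% fell with age in pachytene fractions. In these fractions 2 of the 8 macrophage markers lay above the median of the array at both ages. Of the 8 spermatogonia markers 5 did in young and 4 in aged rats. The part of these cells in the age differences was not tested, and in such bulk fractions fewer cells of a type and less RNA per cell cannot be told apart.

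**Figure D4:**
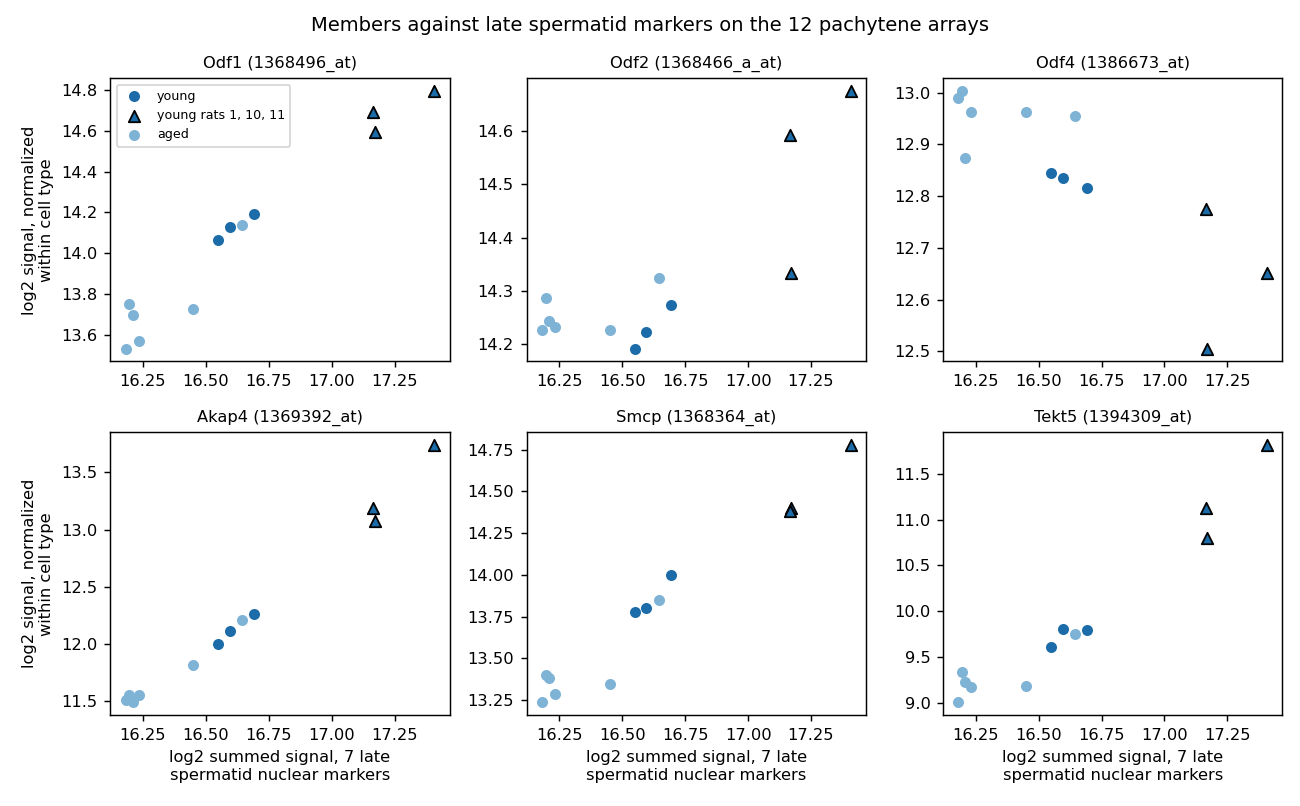
Normalized log2 level of each gene's brightest probe set (y axes) against the summed log2 level of 7 late spermatid markers (x axis, labelled nuclear) in the 12 pachytene arrays, with young rats 1, 10 and 11 as triangles. For Odf1, Akap4, Smcp and Tekt5 these rats are highest on both axes, at marker levels of 17.2 to 17.4, and aged rats lie at 16.2 to 16.6.

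The scale of the arrays bears on the smaller changes. Over all probe sets the median age change in pachytene spermatocytes was 0.05 after quantile normalization, -0.24 as deposited, -0.12 with hybridization controls and 0.13 with median centring. Akap4, Smcp and Tekt5 were lower under all 4 scalings (adjusted p at most 0.0345). Odf1 with median centring was at -0.33 (adjusted p = 0.0588). The 2 probe sets of Odf2 that did not pass after quantile normalization each passed on another scale, 1368466_a_at as higher with median centring (0.20, adjusted p = 0.0471) and 1388019_at as lower as deposited (-0.28, 0.00749). The rises of Odf4 were not past the threshold on the deposited scale (0.14 and 0.16, adjusted p = 0.102 and 0.0681), nor was that of Odf2 1399142_at (0.11, 0.217; 0.23, 0.0668 with hybridization controls). Of the 9 probe sets 4 were higher and 3 lower with median centring (47.7% of all called), 0 and 5 as deposited (61.7%) and 2 and 4 with hybridization controls (32.7%), so the balance of directions depended on the scale. Odf2 1399142_at also lost its call without young rat 10 or without aged rat 10, with a range of 0.21 to 0.31 over the rats left out in turn.

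In round spermatids the estimated age changes of Odf1, Akap4, Smcp and Tekt5 were smaller, while that of Odf4 1386673_at was not (0.24 against 0.22). Tekt5 fell 1.42-fold (log2 change -0.51, SE 0.10, n = 6 per age, limma adjusted p = 0.00592) and Akap4 by 0.18 on the log2 scale (SE 0.04, adjusted p = 0.00788). Odf4 1386673_at rose by 0.24 (SE 0.05, adjusted p = 0.00867), while 1386450_at was at 0.11 (adjusted p = 0.0502) and passed as deposited (0.26, adjusted p = 0.0171) and with hybridization controls (0.30, 0.00909). So 3 of the 9 probe sets passed, 1 higher and 2 lower, against 17.1% of all, 8.65% higher and 8.48% lower. None of the 9 had young and aged groups that did not overlap, against 7.92% of all.

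The brightest genes changed little with age in that comparison after quantile normalization. Smcp was at -0.06 (SE 0.02, adjusted p = 0.0966) and Odf1 at 0.00, because it held rank 4 in the same number of arrays at both ages and rank 5 in the rest, and quantile normalization gives each rank a fixed value. On the deposited scale Odf1 was at -0.07 (adjusted p = 0.162) and Smcp at -0.11 (0.0539), and with median centring both were lower (-0.21 and -0.25, adjusted p = 0.00476 and 0.00423), as was Odf2 1368466_a_at (-0.16, 0.0207). Odf2 was at 0.02, -0.05 and 0.10 in its probe sets 1368466_a_at, 1388019_at and 1399142_at (adjusted p = 0.809, 0.405 and 0.236), and the last was at 0.35 as deposited (0.0154) and 0.39 with hybridization controls (0.000869).

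None of these 3 calls held without young rats 1, 10 and 11, when 5.53% of all probe sets were called. Those rats were picked on the pachytene arrays, and only young rats 2, 3 and 13 remained in this fit. On the first principal component of the round spermatid arrays (62.2% of the variance) young rats 10, 11, 13 and 1 lay at -40.7, -18.7, -13.9 and -9.81. With young rat 10 alone left out, 1 probe set was higher and 2 lower (17.0% of all called). Without young rats 1, 10 and 11 Tekt5 was at -0.33 (adjusted p = 0.0594), Akap4 at -0.15 (0.0749) and Odf4 1386673_at at 0.19 (0.0996). Akap4 was also not past the threshold with hybridization controls (-0.15, adjusted p = 0.145), nor Odf4 1386673_at with median centring (0.19, 0.0956). Over all probe sets the median age change in round spermatids was 0.00 after quantile normalization, 0.14 as deposited, 0.18 with hybridization controls and 0.01 with median centring. Of the late spermatid markers 2 of 7 fell in aged round spermatids and 0 rose, of 14 Sertoli cell markers 7 fell and 0 rose, and of 8 spermatogonia markers 4 fell and 0 rose. Among all genes 12.5% rose and 12.4% fell. Of 11 pachytene markers 4 rose and 0 fell, with a median of 0.24, and their summed log2 level was 15.30 to 15.52 in aged and 14.75 to 15.26 in young round spermatid fractions, without overlap. Without young rats 1, 10 and 11, 1 of these 11 was called higher, 6 of the 14 Sertoli cell markers and 1 of the 8 spermatogonia markers were called lower, and 0 of the 7 late spermatid markers was called. The part of these cells in the round spermatid differences was not tested.

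**Figure D5:**
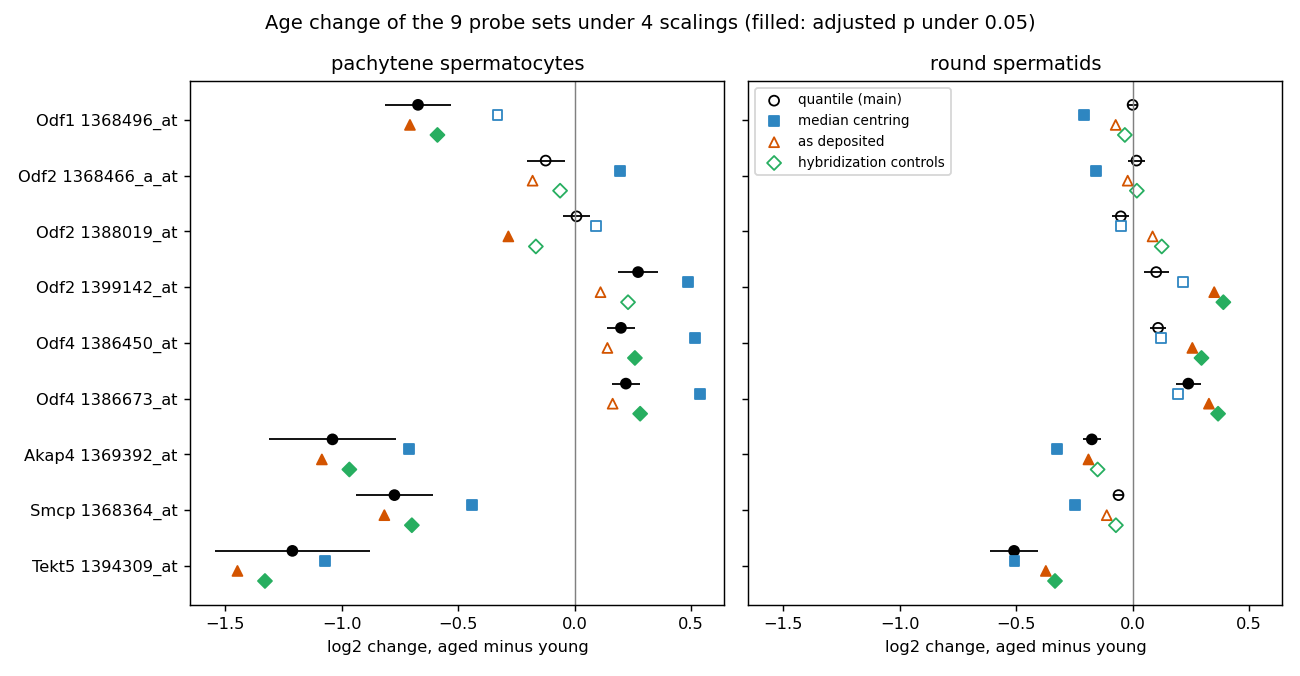
Log2 change with age (x axis, aged minus young, below 0 is lower in aged rats) of the 9 probe sets (y axis) in pachytene spermatocytes (left) and round spermatids (right) under 4 scalings of the arrays, n = 6 arrays per age. Bars are SE of the quantile normalized values, and filled points are past an adjusted p of 0.05. In pachytene spermatocytes Akap4, Smcp and Tekt5 are below 0 under all 4, and in round spermatids Odf1 moves from 0.00 to -0.21 with median centring.

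The difference of the age change between the fractions was tested in 1 model over all 24 arrays. It was past the threshold for Odf1 (0.67, SE 0.15, limma adjusted p = 0.00569), Smcp (0.71, SE 0.18, adjusted p = 0.0122) and Akap4 (0.95, SE 0.31, adjusted p = 0.0453), each with the larger fall in pachytene spermatocytes. For Tekt5 it was 0.74 (SE 0.39, adjusted p = 0.219), and it was past the threshold as deposited (0.95, 0.0198) and with hybridization controls (0.88, 0.0408). Thus 3 of the 9 probe sets passed, all in that direction, against 13% of all, 5.98% in that direction and 7.04% in the other. The round spermatid levels of Odf1 and Smcp in this difference are those near the top of the range.

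These differences were sensitive to the young rats that stood apart and to the scale. With median centring Odf1 was at 0.28, Smcp at 0.35 and Akap4 at 0.52 (adjusted p = 0.142, 0.118 and 0.124), and the only probe set of the 9 that passed was Odf2 1388019_at, in the opposite direction (-0.18, 0.014). On that scale 36.2% of all probe sets were called. Without young rats 1, 10 and 11 Odf1 was at 0.38 (adjusted p = 0.0467), Smcp at 0.38 (0.069) and Akap4 at 0.35 (0.27). Omitting young rat 1, 10 or 11 or aged rat 3, 5, 8, 9 or 10 singly also ended the call of Akap4 (0.75 to 1.09 over the rats left out in turn).

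Other genes of the tail were taken from lists by structure, with 1 probe set per gene, and 49 of 88 listed symbols were measured. In round spermatids against pachytene spermatocytes 35 were higher and 11 lower (median 0.44 against 0.06 over all genes), against 88.3% of all genes called, 49.7% higher and 38.6% lower. Among outer dense fibre partners 4 of 6 were higher, led by Cimap1b (2.58), Klc3 (2.50), a kinesin light chain, and Spag4 (2.26), which binds Odf1. Of the fibrous sheath genes 7 of 9 were higher, with Cabs1 (2.08), Akap14 (2.04) and Akap3 (1.76), the partner of Akap4. All 5 head-tail coupling genes were higher, among them Pmfbp1 (2.60), Spata6 (1.02) and Oaz3 (0.93). Of 5 mitochondrial sheath genes 3 were higher, as Septin4 (2.35) and Spata19 (1.58), and Vdac3, an outer membrane channel, was lower (-0.29). Of 24 tektin and axoneme genes 16 were higher and 6 lower, with Rsph3 at 1.75 and Tekt2 and Gas8 at 1.26 each. With hybridization controls this last split was 10 higher and 10 lower.

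With age in pachytene spermatocytes, 11 of the 49 genes rose and 11 fell, against 44.4% of all genes called, 25.5% higher and 18.9% lower. Of the 25 genes outside the axoneme list, 10 fell and 1 rose: Pmfbp1 (-1.15), Spag4 (-1.17), Cimap1a (-1.12), Cabs1 (-1.14), Gapdhs (-1.05), the glycolytic enzyme of the fibrous sheath, Spata19 (-0.98), Akap14 (-0.96), Akap3 (-0.92), Oaz3 (-0.68) and Spata6 (-0.58) were lower and Spag5 was higher (0.42). Of the 24 tektin and axoneme genes 10 rose and 1 fell, with Rsph6a, a radial spoke protein, at 0.59, Dnah2, a dynein heavy chain, at 0.45 and Tekt2 at -0.49. Omitting young rat 1, 10 or 11 or aged rat 3, 5, 8, 9 or 10 singly ended the call of Tekt2 (-0.59 to -0.38 over all rats), and omitting the same rats other than young rat 1 ended that of Dnah2 (0.32 to 0.53). Tekt1, Tekt3 and Tekt4 were at 0.06, -0.07 and -0.09 and did not pass.

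These tail gene counts also moved with the young rats that stood apart and with the scale. Without young rats 1, 10 and 11, 7 of the 49 genes were higher and 8 lower (17.4% and 12.7% of all genes), and all 8 were among those that fell with every rat included. The calls of Akap14 (-0.34, adjusted p = 0.133), Pmfbp1 (-0.40, 0.0575), Tekt2 (-0.13, 0.291) and Dnah2 (0.11, 0.193) were lost. With median centring 29 were higher and 10 lower (37.8% and 16.6% of all genes), and Oaz3 (-0.33, adjusted p = 0.0555), Spata6 (-0.24, 0.131) and Tekt2 (-0.15, 0.377) did not pass. As deposited 7 were higher and 18 lower (6.68% and 55.9% of all), and with hybridization controls 10 and 14 (11.1% and 29.2%). The tektin and axoneme genes had 20 higher and 0 lower with median centring, 6 and 3 as deposited, 9 and 0 with hybridization controls, and 6 and 0 without those 3 young rats.

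In round spermatids 10 of the 49 rose with age and 10 fell, against 24.9% of all genes called, 12.5% higher and 12.4% lower. The largest falls were in outer dense fibre partners, 4 of 6 lower, with Cimap1b at -0.73 (adjusted p = 0.0109) and Klc3 at -0.66 (0.0106). Hook1 rose by 0.42 and Slc25a31, the ADP/ATP carrier of the sperm tail, by 0.30, while Cabs1 (-0.22), Cabyr (-0.19) and Spata19 (-0.15) fell. The difference between fractions was past the threshold in 9 genes with the lower age change in pachytene spermatocytes and in 2 with the opposite sign (16.2% of all genes called, 7.33% and 8.84% by direction). Cimap1a (1.08), Cabs1 (1.04) and Gapdhs (0.97) led the former. Their calls were lost when single rats were omitted: young rat 10 or 11 or aged rat 3, 5, 8 or 9 for Cimap1a (0.88 to 1.251), these, young rat 1 or aged rat 10 for Cabs1 (0.82 to 1.16), and aged rat 5 for Gapdhs (0.80 to 1.09).

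In round spermatids the tail gene counts without young rats 1, 10 and 11 were 1 higher and 4 lower (4.66% and 3.69% of all genes). The losses included Cabs1 (-0.17, adjusted p = 0.153), Spata19 (-0.09, 0.170) and Slc25a31 (0.24, 0.094). They were 3 and 15 with median centring (7.74% and 8.55%), where Hook1 did not pass (0.47, adjusted p = 0.0684), and 19 and 5 as deposited (50.6% and 3.71%). With hybridization controls they were 22 and 2 (33.6% and 2.37%), and Cabyr was at 0.00. For the difference between fractions, 0 genes with the lower age change in pachytene spermatocytes and 3 with the opposite sign passed without those young rats. With median centring these were 1 and 9, as deposited 25 and 0 and with hybridization controls 15 and 0 (11.6% and 19.5%, 76.0% and 0.134%, and 32.2% and 0.134% of all genes). Cimap1a, Cabs1 and Gapdhs did not pass without young rats 1, 10 and 11 (0.49, 0.44 and 0.46, adjusted p = 0.119, 0.175 and 0.0793) or with median centring (0.70, 0.60 and 0.58, adjusted p = 0.0532, 0.0908 and 0.0566).

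Across the 24 arrays, after group means were removed, most of the members varied together or against each other. Odf1, Akap4, Smcp, Tekt5 and the brightest probe set of Odf2 moved together, with Pearson's r of 0.97 for Odf1 and Smcp, 0.95 for Odf1 and Akap4, 0.94 for Akap4 and Tekt5, and 0.81 for Odf1 and Odf2 (1368466_a_at). Odf2 1399142_at ran against them, at -0.80 with the brightest Odf2 probe set and -0.89 with Tekt5, and Odf4 1386450_at was at -0.62 with Odf1 and Tekt5. The probe sets of Odf4 had an r of 0.90 with each other, yet 1386673_at was at -0.38 with Odf1 and Tekt5 and at -0.15 with the brightest Odf2 probe set. Odf2 1388019_at followed none of the others (r of -0.13 to 0.10). These values share arrays and the young rats that stood apart, and are given as a description.

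The genes most like the mean of the 6 members over 24 arrays, among 13974 genes, were Zfp637 (r = 0.992), Deup1 (0.989), Sap130 (0.988), Psmd10 (0.986) and Magt1 (0.986). With group means removed they were Aqp7 (0.979), Klhl10 (0.972), Lamb3 (0.971), Acsl5 (0.970) and Pmfbp1 (0.969). By member, the closest were 1700009N14Rikl for Odf1 (0.983) and Smcp (0.977), Plcd4 for Odf2 (0.978), Pigc for Odf4 (0.892), C7h12orf54 for Akap4 (0.996) and Got1 for Tekt5 (0.994). Gapdhs, on the fibrous sheath list with Akap4's partners, was the third closest to Akap4 (0.994), and Oaz3 the third closest to Odf1 (0.979).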

How the data were processed

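RNA was hybridised to 24 Affymetrix rat arrays. The deposited values are log2 signals per probe set; biotinylated cRNA was made from 3 ug of total RNA, per the labels' protocols. How probes were summarised was not given in the sources used here. Tests were limma 3.58.1 (lmFit, eBayes) in R 4.3.3 on 31042 probe sets, 57 controls left out, at a Benjamini-Hochberg adjusted p of 0.05. Age was tested within a cell type after quantile normalization, and cell type and the difference of age changes over 4 group means, after 90.3 was added to linear pachytene values so that 45 control probe sets matched (their fractions differed by 0.61 ± 0.77 without this constant and by -0.03 ± 0.17 with it, as mean ± SD), then quantile normalization over 24 arrays. Folds of dim transcripts are compressed by this. With arrays, the number of arrays limits the precision.

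The title numbers were taken to pair the fractions of each rat, which the labels do not state. With group means removed, r between paired fractions was -0.08 to 0.38, and 6 of 12 rats correlated best with their own pair. The rat as a random or fixed block changed no member's call between cell types.

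Members and lists were chosen with earlier results of these data known. Of each tail list, up to 3 genes past the threshold with the largest change per comparison are named; Akap3 with age and Tekt1, Tekt3 and Tekt4 are named outside this rule. Genes were represented by their brightest probe set. The fits were checked on simulated data. Alternatives were median centring, the deposited scale, centring on hybridization controls, array weights, trend and robust options of eBayes, a filter on the 40% dimmest probe sets, leaving out each rat or the young rats that stood apart, blocks, each age alone, and no offset.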

Additional observations from a re-analysis of the deposited data

Results flagged for a closer look

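Of 36 groups of 6 arrays examined (9 probe sets in 4 groups), 3 had an array far from the other 5. Chance alone gives about 1 in 20 such groups, and probe sets on the same arrays are not independent. All 3 were among the 18 groups of aged arrays, and in each the array was that of aged rat 2. In pachytene spermatocytes its normalized Odf1 was 14.14, against 13.53 to 13.75 in the others, and its Smcp was 13.85, against 13.24 to 13.40. In round spermatids its Odf2 (1399142_at) was 9.82, against 9.92 to 9.98. In pachytene spermatocytes it was on the side of the young rats for both genes, and its summed level of late spermatid markers, 16.65, was the highest among aged rats.

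The age change differed between fractions by 0.67 for Odf1, 0.95 for Akap4 and 0.71 for Smcp (limma interaction term, log2, round spermatids minus pachytene spermatocytes).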

How the results depend on the processing

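With age in pachytene spermatocytes 7 of the 9 probe sets passed (3 higher, 4 lower). Without young rats 1, 10 and 11 it was 4 (0 and 4; 24.7% of all called), on the deposited scale 5 (0 and 5; 61.7%), with median centring 7 (4 and 3; 47.7%), and 6 to 7 when each rat was left out in turn. In round spermatids the 3 calls (1 higher, 2 lower) became 5 with median centring (0 and 5; 11.4%), 5 on the deposited scale (3 and 2; 55.3%), 0 without young rats 1, 10 and 11 (5.53%) and 3 to 4 with each rat left out. For the difference the 3 calls, all in one direction, became 1 in the opposite direction with median centring (36.2%), 1 without young rats 1, 10 and 11 (8.41%), 5 on the deposited scale (80.9%), 4 with hybridization controls (25.8%) and 2 to 3 with each rat left out. Between cell types the 8 calls became 7 to 8. A replicate block on rat numbers that young and aged rats share (2, 3 and 10, different animals, r of -0.74 to 0.08) left 0 calls in each fraction. Of all probe sets 1.18% were then called in pachytene spermatocytes and 0 in round spermatids. Only the shared numbers inform the age change in that fit, so it cannot show whether the calls of the members hold. The cause of these changes was not tested.

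Signs changed 33 times, in 14 results. In 5 of the 33 the value had passed the test before, and in 6 it passed after turning. The passing values that turned were 0.20 for Vdac3 (adjusted p = 0.00627), -0.37 for Gas8 (0.0179) and 0.091 for Cox6b2 (0.045) in the difference and 0.13 for Cox6b2 in round spermatids (0.00819). For age in pachytene spermatocytes, Odf2 1368466_a_at was 0.20 with median centring (adjusted p = 0.0471), 0.026 without young rats 1, 10 and 11 and 0.016 with the replicate block, and Odf2 1388019_at was -0.28 as deposited (0.00749), -0.17 with hybridization controls, -0.083 with the block and -0.021 to 0.034 with each rat left out. In round spermatids Odf2 1368466_a_at was -0.16 with median centring (0.0207), -0.021 as deposited and -0.011 to 0.032 with each rat left out, Odf2 1388019_at 0.086 as deposited and 0.13 with hybridization controls, and Cox6b2 -0.025 with median centring. Between cell types Odf4 1386673_at was 0.14, 0.082 and 0.027 with median centring (0.0159), as deposited and with hybridization controls. For the difference, median centring gave -0.20 for Odf2 1368466_a_at, -0.19 for Odf4 1386673_at, -0.15 for Vdac3 and -0.29 for Cox6b2 (0.00496). The deposited scale gave 0.18 for Odf2 1388019_at (0.023), 0.25 for Odf2 1399142_at, 0.12 for Odf4 1386450_at and 0.015 for Gas8. Hybridization controls gave 0.10, 0.17, 0.047 and -0.0022 for Odf2 1388019_at, Odf2 1399142_at, Odf4 1386450_at and Cox6b2. With each rat left out, Odf4 1386673_at was -0.020 to 0.077.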
